A study of Mus musculus with 4 samples.

Results

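Striated muscle contractile genes encode the sarcomere, the repeating unit of skeletal and heart muscle, and the calcium and energy systems that serve it. The members were chosen by name: they were the autosomal rows of the deposited gene table whose symbol is one of 36 listed genes, and all 36 were found and had a value in both genotypes, out of 22691 genes listed and 19836 autosomal genes with both values. By the muscle in which they are best known, 20 were counted as skeletal, 11 as cardiac and 5 as genes of both muscles (Ttn, Des, Ckm, Actn2 and Myh7b). Trimethylation of histone H3 at lysine 27 (H3K27me3) was measured by chromatin immunoprecipitation and sequencing (ChIP-seq) in fibroblasts grown from female C57BL6/J fetuses at embryonic stage E13.5. The number of fetuses behind each culture is not given in the sources used here. One genotype was Smchd1 +/+ (WT), and the other was Smchd1 MD1/MD1 (MD1), which the series' design calls deficient for SmcHD1, a chromatin protein of the SMC family known for its part in X inactivation. Each genotype had 1 ChIP library, made with the mouse monoclonal antibody CMA323, and 1 input library made with none, 4 libraries in all. There is therefore no replicate error and no test, and every comparison of genotypes below compares these libraries.

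H3K27me3 is set by Polycomb repressive complex 2 over genes that are kept silent, among them genes of lineages other than the cell's own. In skeletal and heart muscle the genes described here are among the most active. In a sarcomere, thick filaments of myosin pull on thin filaments of actin when calcium binds troponin, titin and nebulin set filament position and length, and the Z-disc anchors the thin filaments. Embryonic fibroblasts are mesenchymal cells that build the same kind of contractile machinery from other, non-muscle genes of the same families.

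Values are log2 enrichments over a whole gene. They are read here as ChIP over input from the form of the numbers, since the denominator is not stated, so that 0 is no enrichment beyond the authors' scaling and 1 is 2-fold. Read so, each is a ratio within the same gene, so gene length cancels from it. A whole-gene value still averages any local enrichment over the length, so levels of short and long genes are not fully comparable. The difference is the MD1 value minus the WT value. The depth of the libraries is unknown. In a culture of many cells, a lower value cannot be told apart from the mark in fewer cells. The cell type was checked on marker genes: none of 16 fibroblast genes was above 0 in either genotype, their medians being -2.79 (WT) and -3.52 (MD1). Marker genes of other cells a fetal culture could hold carried more mark. Their WT medians were 0.11 for 8 neuronal genes, -0.060 for 6 endothelial genes, 1.30 for 6 epithelial genes and -0.071 for 5 blood genes with values.

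The promoters of 6 members, chosen after their values were seen, are shown first because they span the members' range of CG content and of level. Each is the RefSeq window from 250 bases before to 50 bases after the start of the gene, on the gene's strand from 5′ to 3′, in build GRCm38.p6, with every CG dinucleotide in capitals. Polycomb marks in mammals are known to gather at unmethylated CG-rich DNA. Myl2, the ventricular regulatory light chain, had the highest WT value of all members and 1 CG in its window (chr5:122092474-122092773, plus strand). Acta1, skeletal alpha-actin, had the second highest MD1 value and 12 (chr8:123894726-123895025, minus strand). Myl4, the atrial and embryonic light chain, was 1 of 5 members below 0 in WT and had 25, the most (chr11:104550413-104550712, plus strand). In mm9 the gene Cdc27 lies 0.042 kb from Myl4, so this window may also hold sequence of Cdc27. Myh3, Myh2 and Myh4, the embryonic, fast IIa and fast IIb myosin heavy chains, stand for the gene cluster on chromosome 11 and had 4, 9 and 1 (chr11:67078050-67078349, chr11:67170777-67171076 and chr11:67237562-67237861, all plus strand).
Myl2: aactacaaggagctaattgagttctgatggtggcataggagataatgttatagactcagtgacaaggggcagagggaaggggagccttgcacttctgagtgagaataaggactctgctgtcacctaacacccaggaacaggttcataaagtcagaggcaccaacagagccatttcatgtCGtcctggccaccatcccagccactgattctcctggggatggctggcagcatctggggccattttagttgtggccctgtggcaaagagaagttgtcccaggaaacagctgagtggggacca
Acta1: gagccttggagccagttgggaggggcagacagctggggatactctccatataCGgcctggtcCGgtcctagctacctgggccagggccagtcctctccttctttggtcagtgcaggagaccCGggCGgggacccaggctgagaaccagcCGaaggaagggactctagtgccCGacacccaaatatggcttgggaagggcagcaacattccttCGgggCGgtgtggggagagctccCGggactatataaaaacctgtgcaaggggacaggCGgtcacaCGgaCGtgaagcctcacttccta
Myl4: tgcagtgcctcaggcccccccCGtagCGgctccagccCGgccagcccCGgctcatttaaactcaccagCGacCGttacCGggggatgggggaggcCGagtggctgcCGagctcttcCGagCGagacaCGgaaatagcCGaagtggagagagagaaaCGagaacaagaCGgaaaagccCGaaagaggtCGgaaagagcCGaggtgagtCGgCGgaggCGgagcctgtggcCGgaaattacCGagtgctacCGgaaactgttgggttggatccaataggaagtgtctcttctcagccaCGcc
Myh3: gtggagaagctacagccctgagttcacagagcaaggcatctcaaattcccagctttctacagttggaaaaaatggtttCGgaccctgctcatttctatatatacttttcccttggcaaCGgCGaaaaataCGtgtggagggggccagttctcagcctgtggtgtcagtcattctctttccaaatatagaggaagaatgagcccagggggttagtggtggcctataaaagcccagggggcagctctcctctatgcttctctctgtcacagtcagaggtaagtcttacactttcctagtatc
Myh2: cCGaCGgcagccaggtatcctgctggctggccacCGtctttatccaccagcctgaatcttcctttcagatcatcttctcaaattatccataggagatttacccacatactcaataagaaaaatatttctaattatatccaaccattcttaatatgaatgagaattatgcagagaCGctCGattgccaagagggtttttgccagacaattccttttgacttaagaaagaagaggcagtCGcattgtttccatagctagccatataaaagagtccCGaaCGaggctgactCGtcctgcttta
Myh4: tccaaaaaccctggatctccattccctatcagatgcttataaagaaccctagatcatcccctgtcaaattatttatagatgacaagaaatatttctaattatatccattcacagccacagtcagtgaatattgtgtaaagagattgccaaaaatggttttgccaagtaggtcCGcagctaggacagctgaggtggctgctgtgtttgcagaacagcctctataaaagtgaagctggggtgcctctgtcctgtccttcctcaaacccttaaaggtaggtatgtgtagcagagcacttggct

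The mark was present over most striated muscle genes in both genotypes. In WT 31 of the 36 were above 0, against 35.6% of autosomal genes, and in MD1 31 were, against 34.2%. The median member stood at 0.85 in WT (quartiles 0.30 and 1.55), percentile 81.9 of autosomal genes, and at 0.97 in MD1 (quartiles 0.27 and 1.69), percentile 83.1. The autosomal medians were -0.78 and -0.90. Members ran from -0.37 (Tnni2) to 2.25 (Myl2) in WT and from -0.50 (Tnni2) to 2.55 (Myl2) in MD1. A spread of more than 2 log2 units was thus present among these skeletal and cardiac genes in both genotypes.

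**Figure D1:**
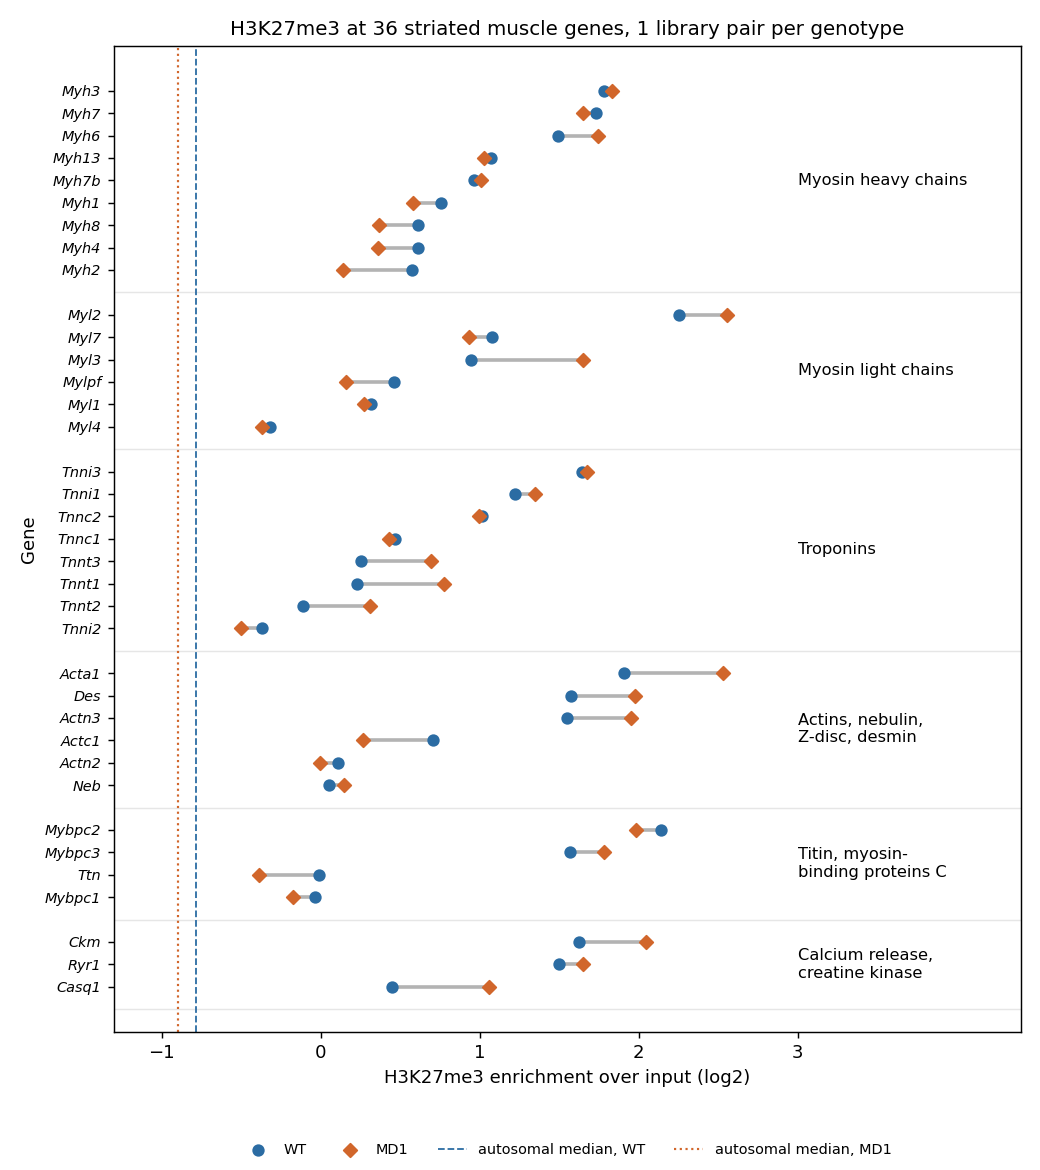
H3K27me3 enrichment over input (log2, horizontal axis) of the 36 members (vertical axis, grouped by role), with a blue circle for WT and an orange diamond for MD1, 1 library pair each, and the autosomal medians as vertical lines. All members lie to the right of both medians of -0.78 and -0.90, and no pair of symbols is further apart than 0.71.

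No member differed by 2-fold between the genotypes. Among 19836 autosomal genes MD1 was lower by 2-fold or more at 20.4% and higher by as much at 1.61%, and 0 of 36 members were in either class. Among the 8262 autosomal genes within the members' range of mean level, 1.57% were lower and 1.84% higher, and beside shares this small a count of 0 of 36 is not a result about the members. The members' differences ran from -0.44 (Actc1) to 0.71 (Myl3) with a median of 0.0075 and 18 on either side of 0, and 32 of 36 were under 0.5 in size. The intervals of 7 members overlap another listed gene (Ckm, Myh7, Myh7b, Myl4, Des, Neb and Tnnt3), and their reads cannot be assigned to 1 of the genes there. The median over all autosomal genes was -0.27, and over those in the members' range of level 0.017.

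A level-matched difference was also used, since the scatter of the difference depends on level and gene length. It is the difference minus the median difference of 500 autosomal genes of the same length quartile whose mean levels are closest to it, and the SD of those 500 serves as a yardstick in place of a replicate. By this measure 3.41% of autosomal genes lay at or below -1 and 3.16% at or above 1, and 0 of 36 members lay beyond either. The members' values ran from -0.42 (Actc1 and Myh2) to 0.60 (Myl3) with a median of -0.0065. No member was among the 12 most extreme of its 500 matched genes at either end. The nearest to that were Casq1, which 22 of 500 equalled or exceeded, and Myh2, which 32 of 500 were as low as.

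**Figure D2:**
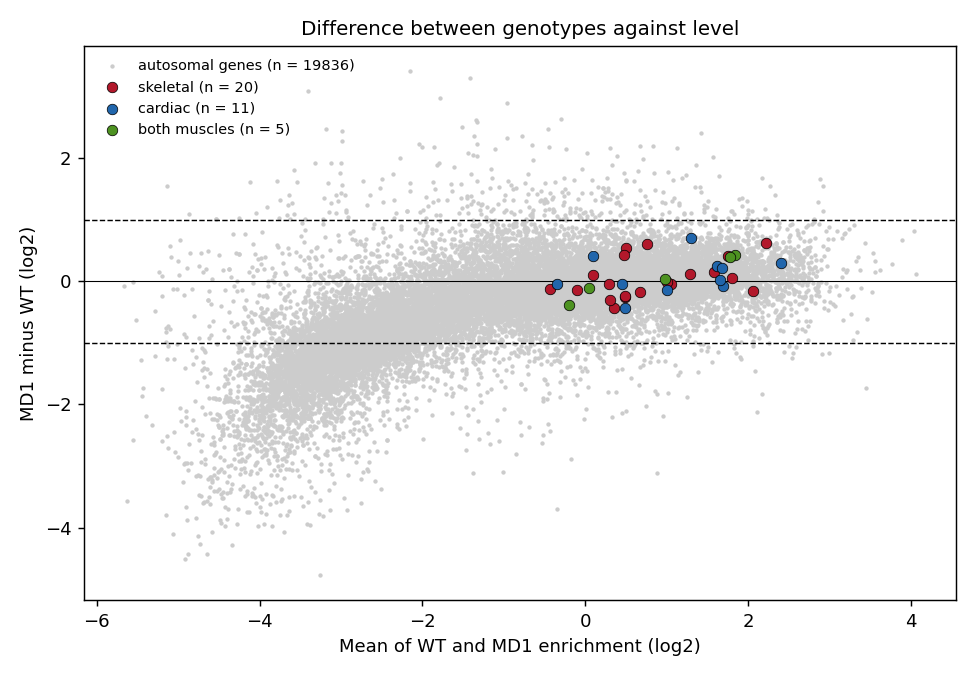
MD1 minus WT (log2, vertical axis) against the mean of both values (log2, horizontal axis) for 19836 autosomal genes in grey and the members in colour by muscle, with dashed lines at 2-fold. The members lie within -0.44 and 0.71, to the right of the low-level genes whose differences bend below -1.

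The 9 myosin heavy chain genes, which encode the motor of the thick filament, were all above 0 in both genotypes. Myh3, the embryonic form, was the highest, at 1.78 in WT and 1.83 in MD1. The cardiac pair on chromosome 14 came next: Myh7 (beta, ventricular and slow muscle) went from 1.73 to 1.65 and Myh6 (alpha, the main form of the adult mouse heart) from 1.49 to 1.74. Of the remaining heavy chains, Myh13, the extraocular form, stood at 1.07 and 1.03, and Myh7b, a slow-type form outside both clusters on chromosome 2, at 0.96 and 1.01. Myh1 (fast IIx) stood at 0.76 and 0.58, Myh8 (perinatal) at 0.61 and 0.37, Myh4 (fast IIb) at 0.61 and 0.36, and Myh2 (fast IIa) at 0.57 and 0.14. The 4 lowest heavy chains were thus the fast and perinatal ones that sit side by side on chromosome 11, in both genotypes.

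Their cluster spans 293 kb of chromosome 11 (mm9, 66891802 to 67185004) and holds 6 members in the order Myh3, Myh2, Myh1, Myh4, Myh8 and Myh13, all on the plus strand, with 1 other listed gene, 2310065F04Rik, between Myh3 and Myh2. The WT profile was high at both ends and level between them: the 4 inner genes lay within 0.57 to 0.76, with Myh4 and Myh8 0.00057 apart, while Myh3 and Myh13 at the edges were at 1.78 and 1.07. In MD1 the edges were at 1.83 and 1.03 and the inner genes at 0.14 to 0.58. The inner genes each had a negative difference, -0.43 at Myh2, -0.25 at Myh4, -0.24 at Myh8 and -0.18 at Myh1, and the edge genes differed by 0.048 and -0.045. Relative to matched genes the inner genes were at -0.42, -0.27, -0.26 and -0.21, with matched SDs of 0.28, and between 32 and 113 of 500 matched genes were as low. Each of these differences is thus within 1.5 SD of its matched genes, and neighbouring genes are not independent of each other.

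The flanks of the cluster differed from each other. Just before Myh3, Sco1 and Adprm, genes with a general cellular role, were at -1.96 and -1.60 in WT and at -3.00 and -2.11 in MD1, so that within 11 kb the WT value changed by more than 3 log2 units between Sco1 and Myh3. After Myh13 the next listed gene is Gas7, 161 kb on, which was at -0.74 and -0.36. Of the 10 listed genes before the cluster 6 were above 0 in WT, with a median difference of -0.34, and of the 10 after it 8 were, with a median difference of 0.20. The 6 cluster genes had a median difference of -0.21, against -0.0014 over the 20 flanking genes. The value of 2310065F04Rik within the cluster, named after its values were seen, was 0.90 lower in MD1 (WT 1.505, MD1 0.60), a level-matched difference of -0.95 that 2 of 500 matched genes were as low as. The heavy chain genes are close relatives in sequence, and how reads that map to several of them were counted is not given in the sources used here, so their separate values are uncertain to that extent.

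**Figure D3:**
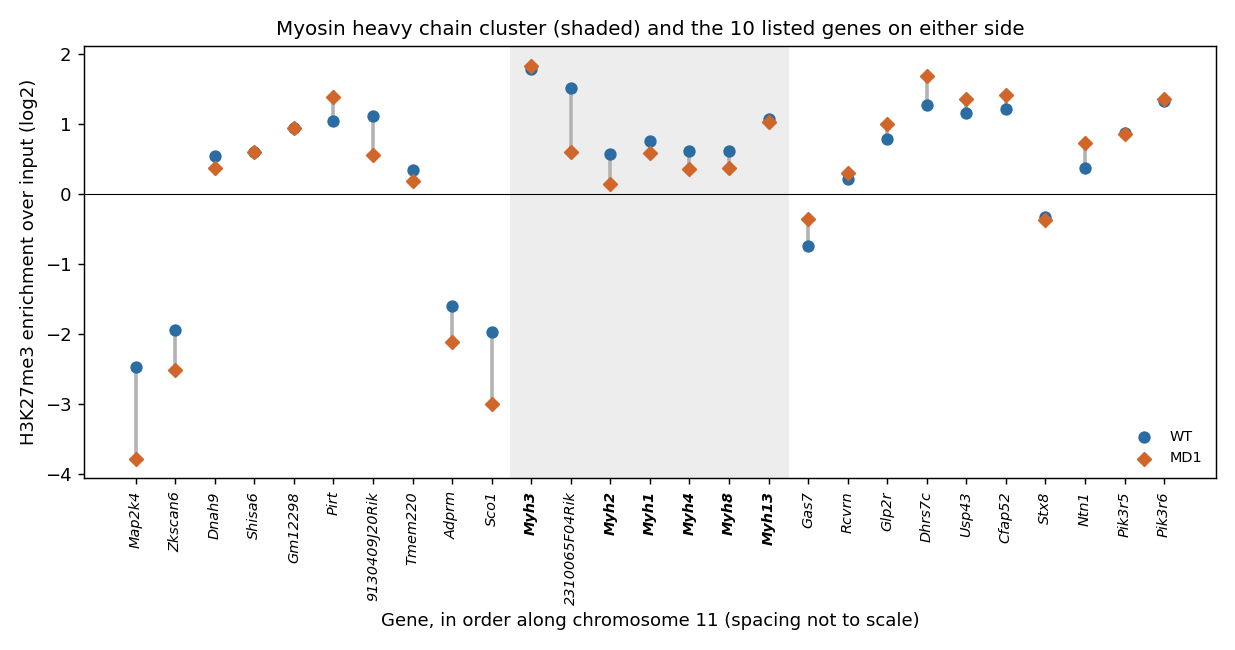
H3K27me3 enrichment over input (log2, vertical axis) in WT (blue circles) and MD1 (orange diamonds) of the listed genes in order along chromosome 11, with the myosin heavy chain cluster shaded. The cluster is high at Myh3 and Myh13 and lower at the 4 Myh genes between them, where every MD1 symbol lies below its WT symbol, and Sco1 and Adprm on its left are below -1.5.

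The cardiac pair differed from that cluster in level. Myh6 and Myh7, 4.08 kb apart (mm9 chromosome 14, 55560758 to 55585444 and 55589525 to 55613386), were above all 4 inner genes of chromosome 11 by more than 0.7 in WT and more than 1 in MD1. Mhrt, a noncoding gene that overlaps Myh7 on the other strand, was at 1.63 in WT and 2.04 in MD1, and ChIP reads do not tell the strands apart. The differences of Myh6 and Myh7 were 0.25 and -0.080, and 140 and 86 of their 500 matched genes were as high or as low.

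Myosin light chain genes, whose products wrap the lever arm of the motor, held the widest range of any role. Myl2 went from 2.25 to 2.55, percentiles 97.9 and 98.7, and Myl7, the atrial regulatory chain, from 1.08 to 0.93. Myl3, the ventricular and slow essential chain, went from 0.94 to 1.65, which is the largest difference of any member, 1.63-fold. It is 6.1 kb long, and the SD among its matched genes was 0.56, so that 45 of 500 were as high. The fast skeletal chains were lower, Mylpf going from 0.46 to 0.16 and Myl1 from 0.32 to 0.27. Myl4 was at -0.32 and -0.37. Its interval begins 0.042 kb from that of Cdc27, a cell cycle gene at -3.18 in WT and -4.00 in MD1, and overlaps that of Gm11665.

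Troponins, the calcium switch of the thin filament, were split within each of 3 tandem pairs, in which a troponin I (inhibitory) and a troponin T (tropomyosin-binding) gene lie within 100 kb. On chromosome 7 the cardiac inhibitory gene Tnni3 was at 1.64 in WT and 1.67 in MD1, while Tnnt1, slow skeletal troponin T, 2.33 kb away, was at 0.23 and 0.77. On chromosome 1 the slow gene Tnni1 was at 1.22 and 1.35, and cardiac Tnnt2, 25.3 kb from it, at -0.11 and 0.31. In the fast pair on chromosome 7, Tnni2 was at -0.37 and -0.50 and Tnnt3, 54.4 kb away, at 0.25 and 0.69. All 3 troponin T genes were higher in MD1, by 0.54, 0.42 and 0.44, and their troponin I partners differed by 0.029, 0.13 and -0.13. Relative to matched genes the troponin T genes were at 0.54, 0.45 and 0.43 with SDs of 0.37 to 0.39, and 39 to 63 of 500 were as high. The calcium-binding subunits had smaller differences, with Tnnc2 (fast) at 1.01 in WT and 0.998 in MD1 and Tnnc1 (cardiac and slow) at 0.47 and 0.43.

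Among the actins, Acta1 went from 1.91 to 2.53 and Actc1, cardiac alpha-actin, from 0.70 to 0.27. These had the second largest positive and the largest negative difference of all members, 0.62 and -0.44. Both are short genes (3.0 and 5.5 kb) with matched SDs of 0.53 and 0.67, and 76 and 116 of 500 matched genes were as high or as low. Of the Z-disc cross-linkers, Actn3, the fast-fibre alpha-actinin, went from 1.55 to 1.95, and Actn2, found in all striated muscle, from 0.11 to -0.0070. Desmin (Des), the muscle intermediate filament, went from 1.57 to 1.98. Nebulin (Neb), the thin-filament ruler, was at 0.049 and 0.15.

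The giant and thick-filament genes were also split. Mybpc2 and Mybpc3, the fast skeletal and cardiac myosin-binding proteins C, were at 2.14 and 1.57 in WT and at 1.98 and 1.78 in MD1. Mybpc1, the slow form, was at -0.035 and -0.18, and titin (Ttn), the elastic spring of the sarcomere, at -0.0092 and -0.39. Titin spans 279 kb and nebulin 202 kb, the longest members, and a whole-gene value averages any local enrichment over that length. In lowest terms their WT ratios of reads were 1029 to 1067 and 3046 to 3033, so these values near 0 rest on many reads. The ratios of Myl2 were 37 to 8 in WT and 6 to 1 in MD1, and those of Tnni2 were 3 to 4 and 13 to 18. Numbers as small as these can stand for few reads.

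The 3 genes of calcium release and energy all had positive differences. Casq1, the calcium buffer calsequestrin of skeletal muscle, went from 0.45 to 1.06, a difference of 0.61 with a matched SD of 0.34. Muscle creatine kinase (Ckm) went from 1.62 to 2.05, and its interval overlaps that of A930016O22Rik. Ryr1, the calcium release channel of the skeletal sarcoplasmic reticulum, went from 1.4996 to 1.65, and at 122 kb it had the narrowest matched SD, 0.20. Its ratio of reads in lowest terms was 3403 to 1240 in WT and 1890 to 589 in MD1.

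Skeletal and cardiac members overlapped over nearly their whole ranges. Skeletal genes ran from -0.37 to 2.14 in WT with a median of 0.61, and cardiac genes from -0.32 to 2.25 with a median of 1.08. In MD1 the medians were 0.73 and 1.65. Of 20 skeletal genes 8 were above 1 in WT, and of 11 cardiac genes 6 were. Of all 19836 autosomal genes 3030 were, and of the 8262 in the members' range of level 2738 were. The median differences were -0.029 (from -0.43 to 0.62) and 0.029 (from -0.44 to 0.71), and these ranges overlapped too. Without Myh7, Myl2, Myl3 and Tnnc1, which heart and slow skeletal muscle share, the cardiac MD1 median was 0.93 in place of 1.65, and the WT median was 1.08 as before. Without the Myh cluster the skeletal medians were 0.45 and 0.89, and the median difference was 0.11 in place of -0.029. The 5 genes of both muscles had medians of 0.96 and 1.01.

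Members were also compared by quartile of gene length. All 8 members of the second length quartile, 8.3 to 17.2 kb (Actn3, Casq1, Ckm, Des, Tnni1, Tnnt1, Tnnt2 and Tnnt3), had a positive difference, from 0.13 to 0.61 with a median of 0.42. Autosomal genes of that quartile in the members' range of level had a median of 0.040, and the level-matched differences of the 8 ran from 0.041 to 0.58. Of the 8262 autosomal genes of any length in that range of level, 4311 had a positive difference. The troponin T genes described above are among the 8, so this pattern is not independent of theirs. In the third quartile 13 members ran from -0.43 to 0.25 with a median of -0.048, and in the longest 5 ran from -0.38 to 0.15. The 10 shortest spread from -0.44 to 0.71 about a median of -0.027. The median SD of the matched genes was 0.62 in the shortest quartile, 0.33 in the second and 0.26 in both of the others, so genes as short as these scattered the most.

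Most related genes outside the members carried little of the mark. Of 22 such genes with a general or other role, 2 were above 0 in WT and 3 in MD1, with medians of -2.24 and -3.11. The 22 include the tropomyosin genes Tpm1, Tpm2, Tpm3 and Tpm4 (WT -3.02, -2.20, -1.06 and -3.30), a family with no member here. Tropomyosin is also part of the sarcomere's thin filament, so the 22 are not a purely non-muscle set. The skeletal and cardiac actins at 1.91 and 0.70 in WT stood against -2.93 at Actb and -2.28 at Actg1, the cytoplasmic actins. Alpha-actinins gave 0.11 and 1.55 at Actn2 and Actn3 against -3.04 and -2.96 at Actn1 and Actn4. Desmin at 1.57 stood against vimentin (Vim), the fibroblast intermediate filament, at -2.93.

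Among myosins the non-muscle heavy chains Myh9 and Myh10 were at -2.87 and -2.08 in WT, but Myh14 was at 1.94, above all 9 striated heavy chains, and at 2.04 in MD1. The light chains Myl6, Myl12a and Myl12b were at -3.99, -3.71 and -2.31. By the 2-fold limit 11 of these 22 had less of the mark in MD1, against 20.4% of autosomal genes, and 1, Ckb, had more. By the level-matched difference 2 were beyond the limit below and 1 above, with a median of -0.0029. The lowest differences were at Actn4 (-2.67) and Myh9 (-2.65), and relative to matched genes these were -1.29 and -1.27. Over all autosomal genes the slope of the MD1 value against the WT value was 1.25. The brain creatine kinase gene Ckb had the highest difference, from -1.96 to 0.40, and Itpr2, an inositol trisphosphate receptor, the next, 0.10. In lowest terms the ratios of reads at Ckb were 1 to 4 in WT and 27 to 20 in MD1, so its WT value can rest on few reads.

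**Figure D4:**
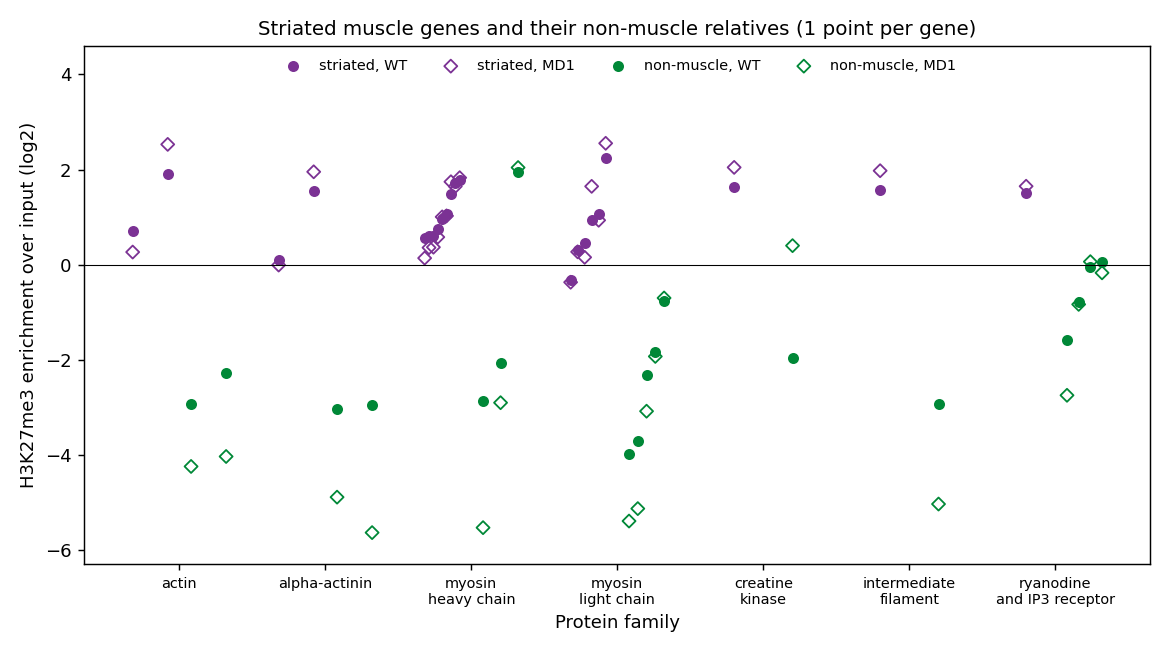
H3K27me3 enrichment over input (log2, vertical axis) in WT (filled circles) and MD1 (open diamonds), 1 point per gene, of striated muscle members (purple) and related genes (green) by protein family. Actb, Actg1, Actn1, Actn4 and Vim lie below -2 while every striated gene shown lies above -0.37, and Myh14, at 1.94 in WT, lies above all 9 striated heavy chains.

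Other genes of striated muscle were read from lists. Of 35 further sarcomere and Z-disc genes 24 were above 0 in WT and 21 in MD1, with a median difference of -0.088 and 0 beyond 2-fold. The ends of the list were the titin cap gene Tcap (1.04 to 0.19) and the chaperone gene Cryab (-2.47 to -3.15) below, and Ankrd1 (-1.47 to -0.97) and the myosin chaperone gene Unc45b (1.62 to 2.06) above. In this and the following lists, counts of genes at least 2-fold lower are to be read against the 20.4% of autosomal genes that were. Counts above 0 are to be read against 35.6% of autosomal genes in WT and 34.2% in MD1. Of 24 genes of excitation and calcium handling 16 were above 0 in WT and 14 in MD1. Of these 24, 2 were at least 2-fold lower (0 when level-matched), the calcium pump gene Atp2a2 (-2.96 to -4.98) and its inhibitor phospholamban, Pln (-1.11 to -2.40). The highest differences there were at the muscle chloride channel gene Clcn1 (-0.70 to -0.22) and the acetylcholine receptor subunit gene Chrne (0.24 to 0.66). Of 13 muscle metabolism genes with values 5 were above 0 in WT, near the autosomal share, and 7 in MD1. Of these 13, 2 were at least 2-fold lower (1, Cox8b, when level-matched), the cytochrome oxidase subunit genes Cox7a1 (-2.28 to -4.49) and Cox8b (-0.59 to -1.91). Fabp3, a fatty acid carrier, and the muscle enolase gene Eno3 had the highest differences, 0.76 and 0.59. Some of the named extremes can rest on few reads. In lowest terms the ratios of reads in WT and MD1 were 2 to 1 and 7 to 6 at Tcap, and 1 to 5 and 1 to 22 at Cox7a1.

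The lists of transcription factors that set muscle identity had higher WT medians than the contractile genes. The median of 17 cardiac transcription factor genes was 2.01 in WT and 1.85 in MD1, and that of 16 skeletal myogenic ones 1.29 and 1.003. All 17 cardiac ones were above 0 in WT and 15 in MD1. Of the 16 myogenic ones only 11 and 9 were, against 31 of 36 members in each genotype. Myod1, the master regulator of skeletal myogenesis, was at 3.13 and 3.75, above every contractile gene. Among the cardiac factors the ends were Nkx2-5 (3.05 to 2.28) and Hand2 (1.60 to 1.03) below and Gata6 (0.41 to 1.05) and Irx4 (2.44 to 2.95) above, none beyond 2-fold. Among the myogenic ones Mef2d (-2.70 to -5.02) was lowest, and Lbx1 (2.31 to 3.25) and Myf6 (0.18 to 0.87) were highest. Of 13 smooth muscle genes, Des among them, 7 were above 0 in each genotype and 3 were at least 2-fold lower (0 when level-matched), with Tagln (-3.45 to -5.60) and Pdlim7 (-1.82 to -3.30) lowest and Mylk (0.51 to 1.09) and Actg2 (0.64 to 1.10) highest.

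The members' promoters shared a low content of CG dinucleotides. Of 36 members 32 had a RefSeq window, and Actn3, Neb, Tnni2 and Tnnt3 had none. Where a gene had several windows the most upstream was used. The ratio of observed to expected CG had a median of 0.23 over the 32, against 0.64 over 14749 autosomal genes with a window and 0.36 over the 5064 of these above 0 in WT. It reached 0.6, a common bound for CpG islands, in 4 of 32 members (Myl4, Myh2, Mybpc1 and Actn2), against 53.8% of autosomal genes and 29.1% of those above 0 in WT. Over 19 genes with a window from the list of related genes the median was 0.69. These 4 members were at -0.32, 0.57, -0.035 and 0.11 in WT, all below the members' median. They were not simply the members with the most CG. Myh2 and Mybpc1 had 9 and 11 CG in windows of 42.3% and 46.7% GC. Acta1 with 12 and Des with 11, at ratios of 0.43 and 0.34, were at 1.91 and 1.57 in WT, above the median. The CG dinucleotides counted for Myl4 may in part be those of Cdc27, which lies 0.042 kb from it in mm9. The 5 members with 1 CG lay on both sides of the members' median. Tnnc1 at 0.47 and Myh4 at 0.61 were below it, and Myl3 at 0.94, Mybpc3 at 1.57 and Myl2 at 2.25 above it. Across the 32 genes, which are not independent samples, the WT value and the CG ratio had r = -0.41 (Spearman's rho -0.26). Over all 14749 autosomal genes with a window r was -0.45 (rho -0.46). Over the 5064 of these above 0 in WT it had the other sign, 0.099 (rho 0.078).

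**Figure D5:**
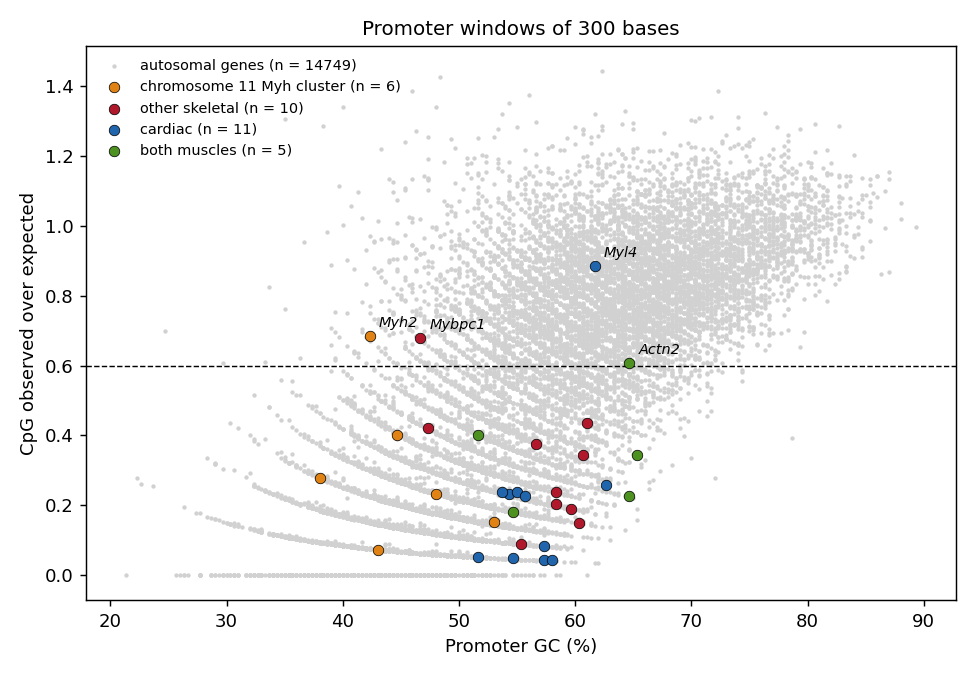
Ratio of observed to expected CG (vertical axis) against GC content in percent (horizontal axis) of promoter windows of 300 bases, for 14749 autosomal genes in grey and 32 members in colour. Apart from Myl4, Myh2, Mybpc1 and Actn2 the members lie below the dashed line at 0.6, and the Myh cluster lies at the low-GC side, from 38.0% to 53.0%.

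The Myh cluster stood apart from the other members in base composition. Its 6 windows had a median GC content of 43.8%, against 57.3% for the other 26 members with one. A TATA motif (TATAAA, either strand) was found in 5 of the 6 and in 5 of the other 26, against 14.2% of 27025 windows of the same length. The CArG box, the motif of serum response factor, was in 6 of 32 members (Acta1, Actc1, Myh4, Myh13, Myl3 and Myl7) and in 1.59% of all windows. The MEF2 motif was in 2 (Mybpc3 and Ttn) and in 0.570% of all windows, and the E-box form CAGCTG in 12 and 16.1%. Both strands were searched, and no matches of different motifs shared bases in these windows. A match is a description of these letters and not a bound site.

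The difference between genotypes and promoter GC content had r = 0.45 (rho 0.43) over the 32 members with a window, which are not independent. The 7 members with under 50% GC, 5 of them in the Myh cluster, had differences from -0.43 to 0.048, with a median of -0.18. The 17 with 50 to 60% had a median of 0.043 and the 8 with 60% or more one of 0.18. Without the Myh cluster r was 0.26 over 26 genes. It was 0.66 (rho 0.72) over 16 skeletal members, among them the Myh cluster, and -0.38 (rho -0.16) over 11 cardiac ones. Its sign was thus not shared by both muscles. Over all 14749 autosomal genes with a window r was -0.21 (rho -0.24), and over the 5064 of them above 0 in WT it was 0.081, with medians of -0.040, 0.035 and 0.0093 in the same 3 classes. The part of base composition in the differences was not tested.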

How the data were processed

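H3K27me3 ChIP-seq was analysed from 1 table with 1 row per gene. The authors deposited log2 values in 2 columns, named in the file header for WT and smchd1MD1. The submitters' processing notes name build mm9, while no source used here gives the aligner, the read counting or the scaling. With 1 constant per column taken off, 99.98% of WT and 99.95% of MD1 values were logs of fractions of whole numbers no larger than 20000 (tolerance 1e-12), the form that ChIP over input reads would have; that denominator is not stated. These ratios are known in lowest terms, so depth is unknown and no interval is given. Starts were converted to count from 1. Only autosomal genes were analysed.

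With 1 library of each kind per genotype no test was made. Computations used Python 3.11.15, numpy 2.4.6 and pandas 2.3.3, and the level-matched difference was checked on simulated data. The members and lists were chosen with earlier results of these data known. Every member is described, and from each other list the genes with the 2 lowest and 2 highest differences are named, except 1 gene that is not reported here. Further relatives and neighbours of members, and Myod1, were named after their values were seen. Promoter windows came from RefSeq (GRCm38.p6) by symbol, and no coordinate was carried between builds.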

Additional observations from a re-analysis of the deposited data

How the results depend on the processing

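Of 43 alternative values for 13 results, 36 stayed as reported, taking a move of under 0.1 (log2) or a count within 1.5 times as unchanged. The count of members at least 2-fold lower stayed at 0 under every alternative run. So did that of members at least 2-fold higher, except at a limit of 1.5-fold, where 3 members (Myl3, Acta1 and Casq1) were higher and 0 lower. Many of these alternatives could not raise a count of 0. Leaving genes out, a 3-fold limit and pseudocounts, which only shrink a difference, could not, nor could centring for the lower count. Such alternatives are no check of these counts, and they are among the 36. Centred on the autosomal median the members' median difference was 0.28. Pseudocounts of 0.01 and 1 on the linear ratio, matching on the WT value and leaving out 7 overlapping genes or 5 genes with a denominator under 20 moved it by less than 0.1, from 0.0075 to between -0.039 and 0.029. The skeletal median minus the cardiac one, -0.47 in WT, -0.92 in MD1 and -0.058 for the difference, became -0.62, -0.76 and 0.084 without the Myh cluster. In MD1 it became -0.20 without the genes shared by heart and slow muscle. The Myh cluster's median difference minus that of its flanking genes was -0.21 with 10 genes on either side and -0.35 with 5. Leaving out overlapping genes for the levels was chosen after seeing the data. No paired analysis was possible because the genotypes had 1 library of each kind. With depth unknown, no counting error can be given, and the scatter among genes of like length and level is the measure used in its place.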

Other observations

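The members' neighbours were about as often low in the mark as those of other genes. Of 36 members 23 had a nearest listed non-member on either side below -1 in WT, against 69.2% of 19792 autosomal genes and 58.9% of the 8252 in the members' range of level, for which any listed gene counted as a neighbour. Neighbours below -2 were found at 16, against 47.2% and 37.9%, and 7 had both neighbours above 0, against 15.0% and 22.9%. The 36 are not separate neighbourhoods. Myh1, Myh2, Myh4, Myh8 and Myh13 all had 2310065F04Rik and Gas7, up to 335 kb away, and Tnnt1 and Tnni3 shared both of theirs. Acta1 at 1.91 lay between Ccsap (-1.65) and the nuclear pore gene Nup133 (-2.16), the latter 2.35 kb away, and Tnnc2 at 1.01 between the cell cycle gene Ube2c (-2.51) and Snx21 (-2.54), both within 7 kb. In WT 21 members were higher than both neighbours, and in MD1 22 were, against 53.5% and 53.8% of genes in their range of level. At all 23 with a neighbour below -1 the step down to the lower neighbour was larger in MD1, as it was at 88.2% of the 4864 such genes in that range.

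Tnnt2 showed the reverse arrangement. Cardiac troponin T stood at -0.11 in WT between Lad1 (1.71) and the plakophilin gene Pkp1 (1.60), and at 0.31 in MD1 between 1.87 and 1.48. Tnnt1, 2.33 kb from Tnni3, was 1.41 lower than it in WT, a step between a slow skeletal and a cardiac gene. On its other side Ppp1r12c, 2.89 kb away, was at -2.17 in WT, so Tnnt1 was not lower than both of its neighbours.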
